A study of Mus musculus with 6 samples.

Results

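The interferon regulatory factors (IRFs) described here are the transcription factor genes Irf1, Irf2, Irf3, Irf4, Irf5, Irf7 and Irf8, taken by gene symbol from a table of 28368 mouse genes, where each of the 7 symbols had 1 row. Their mRNA was measured by polyadenylated RNA sequencing of whole tumours. The treated group held 3 libraries, from tumours of mice on a 12 h course of MS-DF-MS therapy, and the control group held 3 libraries, from untreated mice. The series title describes implanted depots that deliver STING agonists and then apoptosis inducers, and the stated interest is how STING signalling leads to interferon-beta inside the tumour. The labels give no strain, sex, age, tumour line or drug names, and describe no group with an empty depot, so drug and implant cannot be told apart. The labels do not say that each library came from its own animal, so the p-values speak to the spread among these libraries, which may be technical.

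IRFs share an amino-terminal DNA-binding domain with a set of conserved tryptophans and bind repeats of GAAA in the promoters of interferons and interferon-stimulated genes. IRF3 and IRF7 are switched on after translation: the kinase TBK1, docked on STING, MAVS or TRIF, phosphorylates their tails and sends them to the nucleus, where they turn on interferon genes. IRF3 is made in most cells without stimulation. IRF7 is scarce in resting cells other than plasmacytoid dendritic cells and is itself made in response to interferon, which closes a feed-forward loop. IRF1 is induced by interferon-gamma and NF-kB signals, and IRF2 binds the same element and can oppose it. IRF5 acts downstream of Toll-like receptors in myeloid cells, while IRF4 and IRF8 form complexes with PU.1 and BATF and shape lymphocytes, dendritic cells and macrophages.

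Library totals ran from 64505780 to 66634551 counts in treated and from 57017043 to 64172654 counts in control tumours. The first principal component of log2 CPM (counts scaled to the same library total) placed treated 3 at 72.9 and the other 5 libraries between -37.9 and 13.3. Summed over 8 melanocyte lineage markers, the level was 22602 to 24595 CPM in the treated libraries against 22011 to 24294 CPM in the controls. The 8 endothelial markers summed to 164 to 182 CPM in the treated libraries against 101 to 126 CPM in the controls. Of these, 5 of 8 passed the test as higher, against 1.36% of all genes, while Vwf had a log2 fold change of -0.49. The 7 measured neutrophil markers summed to 5.36 to 54.4 CPM in the treated libraries against 3.07 to 4.77 CPM in the controls. Of these, 0 of 6 tested passed, against 1.61% of all genes. In whole tumours, fewer cells of a type and less RNA per cell cannot be told apart.

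Of the 7 genes, Irf7 alone passed the test in the comparison of treated with control tumours, and its level was 12.4-fold higher. Irf2, the factor that can oppose IRF1, was 1.63-fold higher and Irf3, the factor that STING signalling activates, 1.14-fold higher, without passing. Irf1, Irf4, Irf5 and Irf8 overlapped between the groups. All 7 had enough counts for edgeR's quasi-likelihood test, run with Benjamini-Hochberg adjustment over 18049 genes and a threshold of 0.05, which called 1.61% of them in either direction. Of the 7 genes 1 rose, against 1.36% of all genes, and 0 fell, against 0.249%. At an unadjusted p under 0.05 there were 2 of 7, Irf7 and Irf2, both higher, against 16.0% of all genes. Irf2, Irf3 and Irf7 had all 3 treated libraries above all 3 controls, 3 of 7 against 12.0% of all genes. The median log2 fold change over the 7 was 0.19, against -0.0032 over all genes tested.

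**Figure D1:**
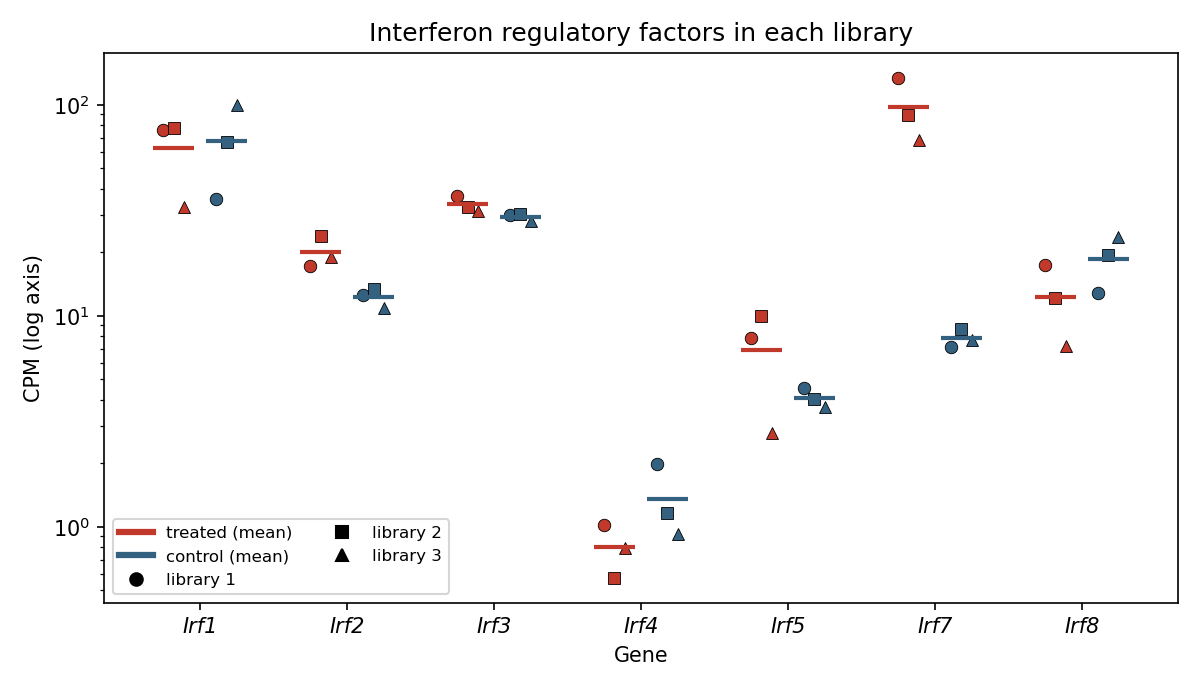
CPM of the 7 interferon regulatory factor genes in each library, on a log axis. Points are libraries, with a symbol for each library number, and bars are group means, treated left of control for each gene. Irf7 is the gene with a wide gap between the groups, at 67.9 to 134 CPM in the treated libraries against 7.15 to 8.63 CPM in the controls, while Irf1, Irf4, Irf5 and Irf8 overlap.

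Promoter windows of 300 bases, from 250 before to 50 after a RefSeq transcription start on mouse build GRCm38.p6, were read for all 7 genes, using the start nearest to the deposited 5′ end of each gene. Each was searched on both strands for GAAANNGAAA, an IRF-binding element, and for TTCNNNGAA, the gamma-activated sequence (GAS) bound by STAT factors, which reads the same on both strands. The IRF element was found in 1 of 7 windows, that of Irf2, and in 3.44% of all 32851 windows of the RefSeq table. The GAS element was found in 3 of 7 windows, those of Irf1, Irf2 and Irf8, and in 8.3% of all windows. Irf1 and Irf8 each have 2 windows in that table, of which 1 holds a GAS element, the window at the start used here. The windows of Irf3, Irf4, Irf5 and Irf7 held neither string, which says only that these letters do not stand there. The windows below are those of the gene that rose and of the 3 genes with a match, written 5′ to 3′ on the gene's own strand with each match in capitals and no match overlapping another.
Irf7, chr7:141266375-141266674, minus strand, no match: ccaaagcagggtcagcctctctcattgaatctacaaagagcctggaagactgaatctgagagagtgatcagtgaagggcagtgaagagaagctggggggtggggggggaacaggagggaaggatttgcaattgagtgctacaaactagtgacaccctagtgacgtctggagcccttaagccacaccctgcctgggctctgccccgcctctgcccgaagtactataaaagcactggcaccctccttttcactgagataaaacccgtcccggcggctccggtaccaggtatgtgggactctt
Irf2, chr8:46739495-46739794, plus strand, an IRF element and then a GAS element: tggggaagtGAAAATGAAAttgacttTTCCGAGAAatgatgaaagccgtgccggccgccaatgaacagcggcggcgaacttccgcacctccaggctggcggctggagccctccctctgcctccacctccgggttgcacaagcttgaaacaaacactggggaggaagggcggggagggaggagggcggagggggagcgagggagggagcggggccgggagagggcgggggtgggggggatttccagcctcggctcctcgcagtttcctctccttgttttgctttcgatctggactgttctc
Irf1, chr11:53769764-53770063, plus strand, a GAS element: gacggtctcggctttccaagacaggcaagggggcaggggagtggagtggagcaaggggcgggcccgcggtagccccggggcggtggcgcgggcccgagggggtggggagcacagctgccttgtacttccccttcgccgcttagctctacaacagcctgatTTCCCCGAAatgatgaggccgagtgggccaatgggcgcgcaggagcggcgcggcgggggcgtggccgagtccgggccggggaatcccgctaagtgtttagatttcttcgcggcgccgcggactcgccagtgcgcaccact
Irf8, chr8:120736108-120736407, plus strand, a pair of GAS elements: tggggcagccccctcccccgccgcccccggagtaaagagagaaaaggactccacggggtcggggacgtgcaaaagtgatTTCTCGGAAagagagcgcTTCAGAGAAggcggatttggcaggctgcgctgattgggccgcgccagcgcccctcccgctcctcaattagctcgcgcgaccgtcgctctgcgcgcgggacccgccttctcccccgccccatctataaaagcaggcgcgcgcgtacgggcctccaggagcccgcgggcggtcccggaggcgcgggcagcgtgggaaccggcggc
Counted from the transcription start, the IRF element of Irf2 spanned positions -241 to -232 and its GAS element -224 to -216. The GAS element of Irf1 spanned -90 to -82, and those of Irf8 -171 to -163 and -153 to -145. The RefSeq start of Irf7 lies 57 bases inside the deposited 5′ end, that of Irf2 13 bases inside, and those of Irf1 and Irf8 equal it.

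Irf7 (ENSMUSG00000025498, chromosome 7, 141262706 to 141266481, minus strand) stood at 134, 89.7 and 67.9 CPM in treated 1, 2 and 3, against 7.15, 8.63 and 7.72 CPM in control 1, 2 and 3. Every treated library was far above every control, and the spread was wide among treated libraries (coefficient of variation 34.7%) and narrow among controls (9.54%). Its log2 fold change was 3.63 ± 0.25 SE (95% interval 3.06 to 4.20, edgeR adjusted p = 0.00036), or 12.4-fold with an interval of 8.36 to 18.4. Against the mean of the controls, log2 CPM was 4.10, 3.52 and 3.12 higher in treated 1, 2 and 3. Treated 3, the library that stood apart, thus carried the smallest rise of the 3. Without that library the log2 fold change was 3.84, and it lay between 3.33 and 3.84 with any library left out (edgeR adjusted p from 0.000157 to 0.00618). The summed neutrophil markers fell in the same order as Irf7 across treated 1, 2 and 3, at 54.4, 16.3 and 5.36 CPM. The highest control sum was 4.77 CPM. The summed endothelial markers, at 182, 172 and 164 CPM in treated 1, 2 and 3 against 126, 115 and 101 CPM in control 1, 2 and 3, did not overlap between the groups. Within that list Vwf went the other way (log2 fold change -0.49, edgeR adjusted p = 0.284), with overlapping groups, and Tek and Kdr overlapped as well. The part of the neutrophil and endothelial markers in the Irf7 values was not tested. GENCODE M21 places the opposite-strand gene Phrf1 across 45 bases of Irf7. Phrf1 had 101, 108 and 113 CPM in the treated libraries against 97.6, 91.0 and 83.9 CPM in the controls.

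Irf3 (ENSMUSG00000003184, chromosome 7, 44997648 to 45002848, plus strand), the factor that TBK1 phosphorylates downstream of STING, had 37.1, 32.9 and 31.2 CPM in the treated libraries against 30.1, 30.3 and 28.2 CPM in the controls. Every treated library was above every control, and treated 3 and control 2 were nearly level. Treated over control, the log2 fold change was 0.19 ± 0.09 SE (95% interval -0.01 to 0.40, edgeR adjusted p = 0.339), and the interval reaches from 0.992-fold to 1.32-fold. Irf3 was the least variable of the 7 genes, with coefficients of variation of 9.0% in treated and 3.93% in control tumours. Bcl2l12, a neighbour on the opposite strand that shares 1065 bases with Irf3, had a log2 fold change of 0.12 ± 0.14 SE (edgeR adjusted p = 0.738). mRNA levels do not measure phosphorylation, the step that activates IRF3.

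The balance between IRF7 and IRF3 transcripts, which serve the same kinases, was compared within each library. There were 3.61, 2.73 and 2.17 Irf7 counts per Irf3 count in treated 1, 2 and 3, against 0.238, 0.285 and 0.274 in the controls. Irf3 counts exceeded Irf7 counts in all 3 controls and fell short of them in all 3 treated libraries, although counts of genes of unequal length do not give relative abundance. The difference in mean log2 ratio was 3.39, a 10.5-fold change of the ratio, with a two-sided exact permutation p = 0.1, the smallest that 3 against 3 libraries allow (0.3 adjusted over the 3 pairs compared).

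Irf1 (ENSMUSG00000018899, chromosome 11, 53770014 to 53777323, plus strand), a factor induced by interferon-gamma, stood at 75.9, 78.0 and 32.6 CPM in treated 1, 2 and 3 and at 35.7, 66.4 and 99.4 CPM in control 1, 2 and 3. The ranges overlapped over most of their width, with control 3 the highest library, treated 3 the lowest and control 1 close to it. The log2 fold change was -0.11 ± 0.41 SE (95% interval -1.06 to 0.84, edgeR adjusted p = 0.931), so that changes between 0.481-fold and 1.78-fold lie inside the interval. Control libraries differed 2.78-fold among themselves and treated libraries 2.39-fold, and the sign of the change turned without treated 3 (log2 fold change 0.20) and without control 3 (0.29). The deposited coordinates of Irf1 differ from those in GENCODE M21 on GRCm38, unlike those of the other 6 genes. In that annotation the model Gm17334 overlaps Irf1 by 907 bases on the opposite strand, at 1.13 to 2.13 CPM in the treated libraries against 0.726 to 4.09 CPM in the controls.

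Irf2 (ENSMUSG00000031627, chromosome 8, 46739732 to 46847458, plus strand) had 17.3, 24.0 and 18.9 CPM in the treated libraries against 12.5, 13.4 and 10.9 CPM in the controls. All treated libraries exceeded all controls, with coefficients of variation of 17.4% in treated and 10.5% in control tumours. Its log2 fold change was 0.71 ± 0.15 SE (95% interval 0.36 to 1.06, edgeR adjusted p = 0.0742), which misses the threshold over all genes. It passed with DESeq2 (log2 fold change 0.70, adjusted p = 0.000752) and with limma-voom with sample quality weights (0.69, adjusted p = 0.0262), and over all 14 alternatives the adjusted p ran from 0.000752 to 0.244 with the change between 0.56 and 0.81. There were 4.40, 3.26 and 1.72 Irf1 counts per Irf2 count in treated and 2.85, 4.95 and 9.14 in control libraries. Between the groups these ratios overlapped (difference in mean log2 ratio -0.80, two-sided exact permutation p = 0.4, adjusted over the 3 pairs 0.6).

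Irf5 (ENSMUSG00000029771, chromosome 6, 29526625 to 29541871, plus strand), which carries Toll-like receptor signals to inflammatory cytokine genes, had 7.83, 10.0 and 2.77 CPM in treated 1, 2 and 3, against 4.56, 4.04 and 3.68 CPM in the controls. Treated 1 and 2 lay above every control and treated 3 below every control. Treated over control, the log2 fold change was 0.75 ± 0.41 SE (95% interval -0.20 to 1.70, edgeR adjusted p = 0.426). Without treated 3 it was 1.13 and passed the threshold (edgeR adjusted p = 0.0389), the only leave-out in which it did, with adjusted p up to 0.758 in the others. Irf5 shares 1045 bases with Tnpo3, a gene on the opposite strand that was more abundant, at 173, 185 and 181 CPM in the treated libraries against 186, 193 and 204 CPM in the controls. Whether the counting used strand is not given in the sources used here, and the part of Tnpo3 reads in Irf5 counts was not tested. Neutrophil markers, summed, stood at 54.4, 16.3 and 5.36 CPM in treated 1, 2 and 3, and macrophage markers at 263, 151 and 73.7 CPM. Among the treated libraries both sums and Irf5 were lowest in treated 3. Both sums were highest in treated 1 and Irf5 in treated 2. In control 1, 2 and 3 the neutrophil sums were 4.03, 3.07 and 4.77 CPM and the macrophage sums 217, 207 and 159 CPM. In treated 3 the neutrophil sum was above every control, and the macrophage sum and Irf5 were below every control. The part of these markers in the Irf5 values was not tested.

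Irf8 (ENSMUSG00000041515, chromosome 8, 120736358 to 120756694, plus strand), which directs monocyte and dendritic cell development, had 17.3, 12.1 and 7.21 CPM in treated 1, 2 and 3 and 12.8, 19.4 and 23.7 CPM in control 1, 2 and 3. The groups overlapped, with treated 1 above control 1, and treated 2 and 3 below every control. The log2 fold change was -0.61 ± 0.33 SE (95% interval -1.37 to 0.15, edgeR adjusted p = 0.418). Of the 10 macrophage markers 0 were called, against 1.61% of all genes. They summed to 263, 151 and 73.7 CPM in treated 1, 2 and 3 and to 217, 207 and 159 CPM in control 1, 2 and 3. The treated libraries fell in the same order for Irf8 and for that sum, and the control libraries in the opposite order. The part of macrophage content in the Irf8 values was not tested. In GENCODE M21 the model Gm20388 spans Irf8 on the same strand, and reads of the pair cannot be told apart.

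Some markers of the dendritic cells that need IRF8 were scarce. Xcr1, a receptor of conventional type 1 dendritic cells, had 9, 12 and 2 counts in treated and 25, 27 and 18 counts in control libraries. Clec9a, which senses dead cells in that lineage, had 33, 37 and 51 counts in treated and 46, 23 and 29 counts in control libraries. In the same list Naaa had 666, 417 and 390 counts in treated and 646, 595 and 498 counts in control libraries. By CPM, Itgae, Wdfy4 and Cadm1 were, like Xcr1, lower in every treated library than in every control. Of all genes 11.2% were. Clec9a, Naaa and Batf3 overlapped, and Tlr3 was higher in every treated library than in every control. The median log2 fold change of the list was -0.325. The sum of the 8 type 1 dendritic cell markers, 281 to 345 CPM in the treated libraries against 319 to 348 CPM in the controls, was mostly Cadm1, an adhesion molecule of many tissues, at 202 to 252 CPM in the treated libraries against 283 to 307 CPM in the controls. The 1 gene of these 8 that was called, against 1.36% of all genes called higher, was Tlr3, which also responds to interferon. The 8 plasmacytoid dendritic cell markers summed to 36.2 to 43.4 CPM in the treated libraries against 33.2 to 38.2 CPM in the controls, most of it Tcf4, and Siglech, which defines that lineage in mouse, had 0 counts in all treated libraries and 6 counts in control 1 alone. In the same list Klk1 had 11, 4 and 6 counts in treated 1, 2 and 3 and 0 counts in all controls. The median log2 fold change of the list was 0.36, with 0 of 5 tested genes called, against 1.61% of all genes. The part of these cells in the Irf7 values was not tested.

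Irf4 (ENSMUSG00000021356, chromosome 13, 30749226 to 30766976, plus strand), a factor of activated lymphocytes and plasma cells that human melanocytes also express, was the scarcest of the 7. It had 67, 37 and 53 counts in treated 1, 2 and 3, or 1.02, 0.575 and 0.798 CPM, against 128, 75 and 53 counts in control 1, 2 and 3, or 1.98, 1.16 and 0.930 CPM. Treated 1 lay above control 3, and treated 2 and 3 below every control. Its log2 fold change was -0.76 ± 0.39 SE (95% interval -1.67 to 0.14, edgeR adjusted p = 0.394), or 0.589-fold with an interval of 0.314 to 1.10, and few counts limit its precision. The 8 B and plasma cell markers summed to 3.46 to 5.93 CPM in the treated libraries against 4.02 to 5.58 CPM in the controls. Of these, Ms4a1, a surface protein of B cells, had 0 counts in all treated libraries and 4 counts in control 1 alone. The 8 T cell markers summed to 11.2 to 15.8 CPM in the treated libraries against 15.0 to 16.2 CPM in the controls. Their median log2 fold change was -0.827, and that of the B and plasma cell list was -0.218. Of the 8 T cell markers 0 were called, against 1.61% of all genes. The part of lymphocytes in the Irf4 values was not tested. There were 16.9, 21.1 and 9.04 Irf8 counts per Irf4 count in treated and 6.46, 16.7 and 25.5 in control libraries, with overlapping groups (difference in mean log2 ratio 0.08, two-sided exact permutation p = 0.9, adjusted over the 3 pairs 0.9). The sign of that difference turned in 3 leave-outs.

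**Figure D2:**
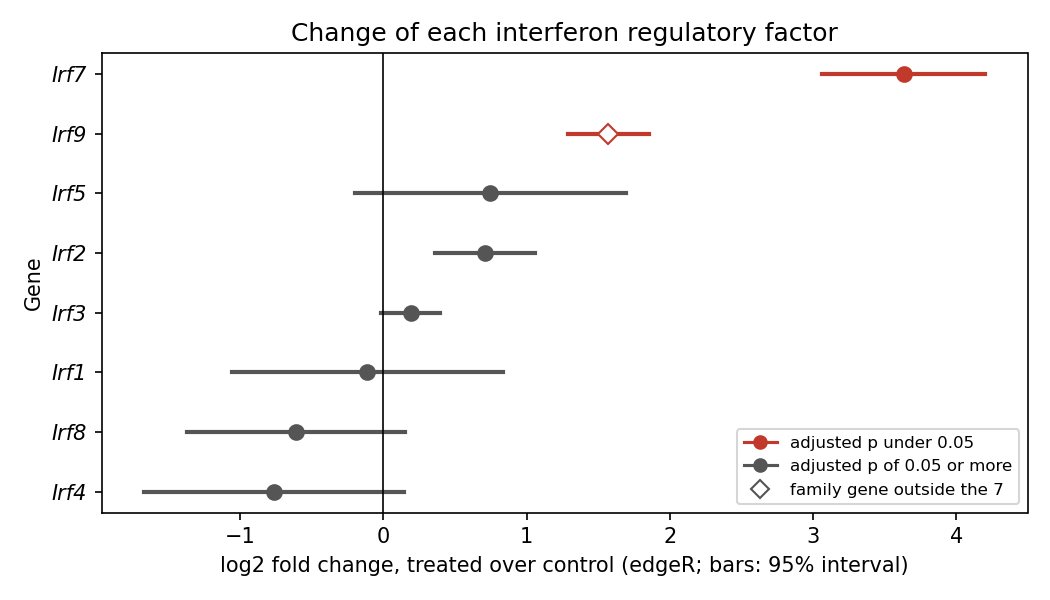
Log2 fold change of treated over control for the 7 genes and for the family gene Irf9, with 95% intervals from edgeR's quasi-likelihood fit. Filled circles are the 7 genes and the open diamond Irf9, with red for an adjusted p under 0.05. Irf7 at 3.63 and Irf9 at 1.57 are the genes in red, and the interval of Irf2 lies above 0 while its adjusted p is 0.0742.

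Scaled for gene length, the order of the 7 genes differed between the groups. In treated tumours Irf7 was the most abundant, at 22.7 ± 8.02 FPKM (fragments scaled for gene length and library size, SD, n = 3), followed by Irf1 (13.8 ± 5.60), Irf3 (8.63 ± 0.831), Irf2 (2.38 ± 0.377), Irf5 (2.08 ± 1.11), Irf8 (1.52 ± 0.640) and Irf4 (0.142 ± 0.0432). In control tumours the order was Irf1 (15.0 ± 7.11 FPKM), Irf3 (7.58 ± 0.296), Irf8 (2.34 ± 0.693), Irf7 (1.82 ± 0.175), Irf2 (1.46 ± 0.153), Irf5 (1.24 ± 0.137) and Irf4 (0.243 ± 0.0995). Irf7 thus had rank 1 in treated and rank 4 in control tumours. Among treated libraries the FPKM ranges of Irf7 and Irf1 overlapped, as did those of Irf1 and Irf3, of Irf2 and Irf5, and of Irf5 and Irf8, while Irf7 exceeded Irf1 in 3 of 3 libraries. Among controls the ranges of Irf8 and Irf7 and those of Irf2 and Irf5 overlapped.

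Summed FPKM over the 7 genes was 65.0, 53.2 and 35.5 in treated 1, 2 and 3, against 22.2, 30.0 and 36.8 in control 1, 2 and 3. Treated 3 fell below control 3, so the sums overlapped. Irf7 made up 48.6, 38.7 and 45.0% of that sum in treated libraries, against 7.50, 6.70 and 4.89% in controls. The share of Irf1 was 26.2 ± 5.70% in treated and 48.5 ± 12.2% in control tumours (SD, n = 3), and that of Irf3 17.6 ± 4.38% in treated and 26.8 ± 7.62% in control tumours. Shares sum to the whole within a library, so a larger share of Irf7 lowers the others.

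**Figure D3:**
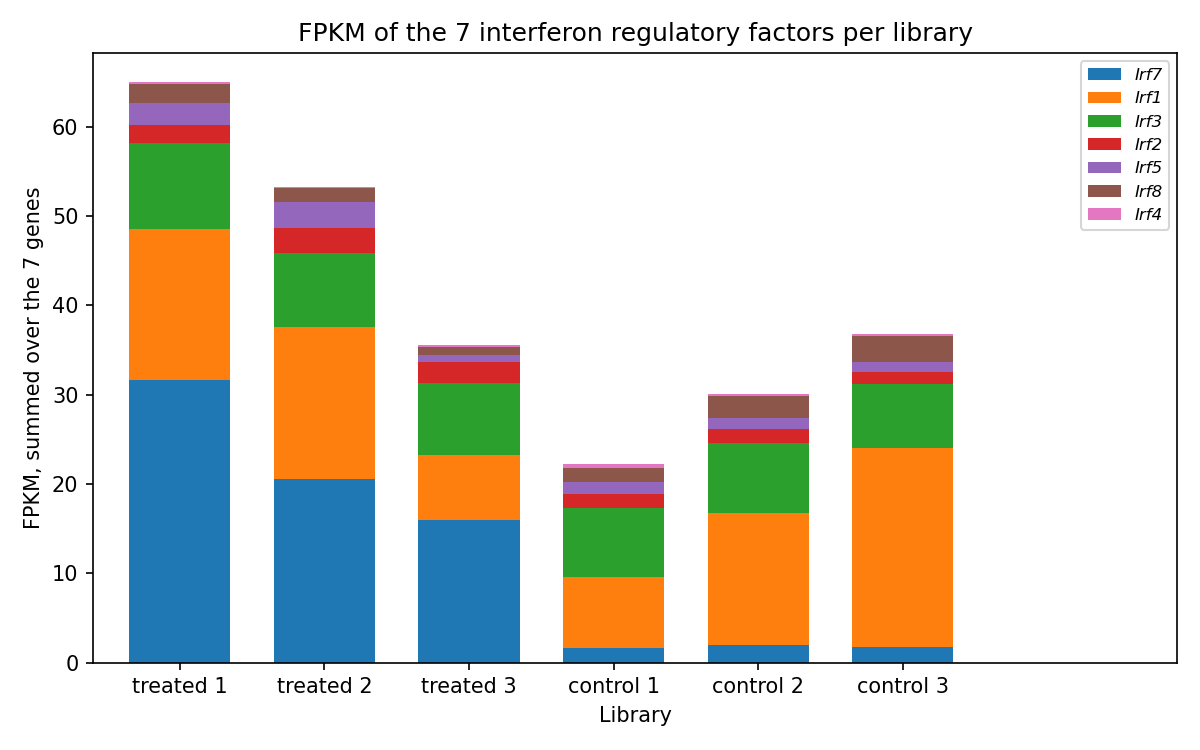
FPKM of the 7 genes stacked for each library, treated libraries at the left. The Irf7 segment is 16.0 to 31.6 FPKM high in treated and 1.66 to 2.01 FPKM high in control libraries, while the Irf1 segment ranges from 7.30 to 17.0 FPKM in treated and from 7.96 to 22.2 FPKM in control libraries.

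Profiles over the 6 libraries were compared by the root mean square difference of log2 CPM after subtracting each gene's mean, using genes whose mean log2 CPM reached 1, for the 5 genes whose log2 CPM had an SD of at least 0.5. The nearest to Irf7 were Dhx58, a relative of the RNA sensor RIG-I (0.228 log2 units), the ubiquitin-like modifier gene Isg15 (0.231) and the RNA-sensing synthetase gene Oas2 (0.273). The nearest to Irf1 were Serpina3g, a serine protease inhibitor (0.118), Cx3cl1, a chemokine (0.192), and Dusp14, a phosphatase (0.195). The nearest to Irf8 were H2-DMb1, which loads peptides on MHC class II (0.144), Psmb10, an immunoproteasome subunit (0.163), and Casp12 (0.166). Those of Irf5 were Neurl3 (0.150), the alarmin Il33 (0.183) and the monocyte chemokine Ccl2 (0.199), and those of Irf4 were Sgk2 (0.183), Slc18a2 (0.218) and Ripor2 (0.221). Irf2 and Irf3 varied less, with 4 and 926 of 11320 genes within 0.1 log2 units.

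Treated 3 was the lowest of the treated libraries for 5 of the 7 genes: Irf1, Irf3, Irf5, Irf7 and Irf8. Against the control mean, log2 CPM in treated 3 was -0.92 for Irf1, -0.55 for Irf5 and -1.32 for Irf8, but 3.12 for Irf7 and 0.63 for Irf2. Irf7 and Irf2 were thus above the control mean in treated 3 as well.

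**Figure D4:**
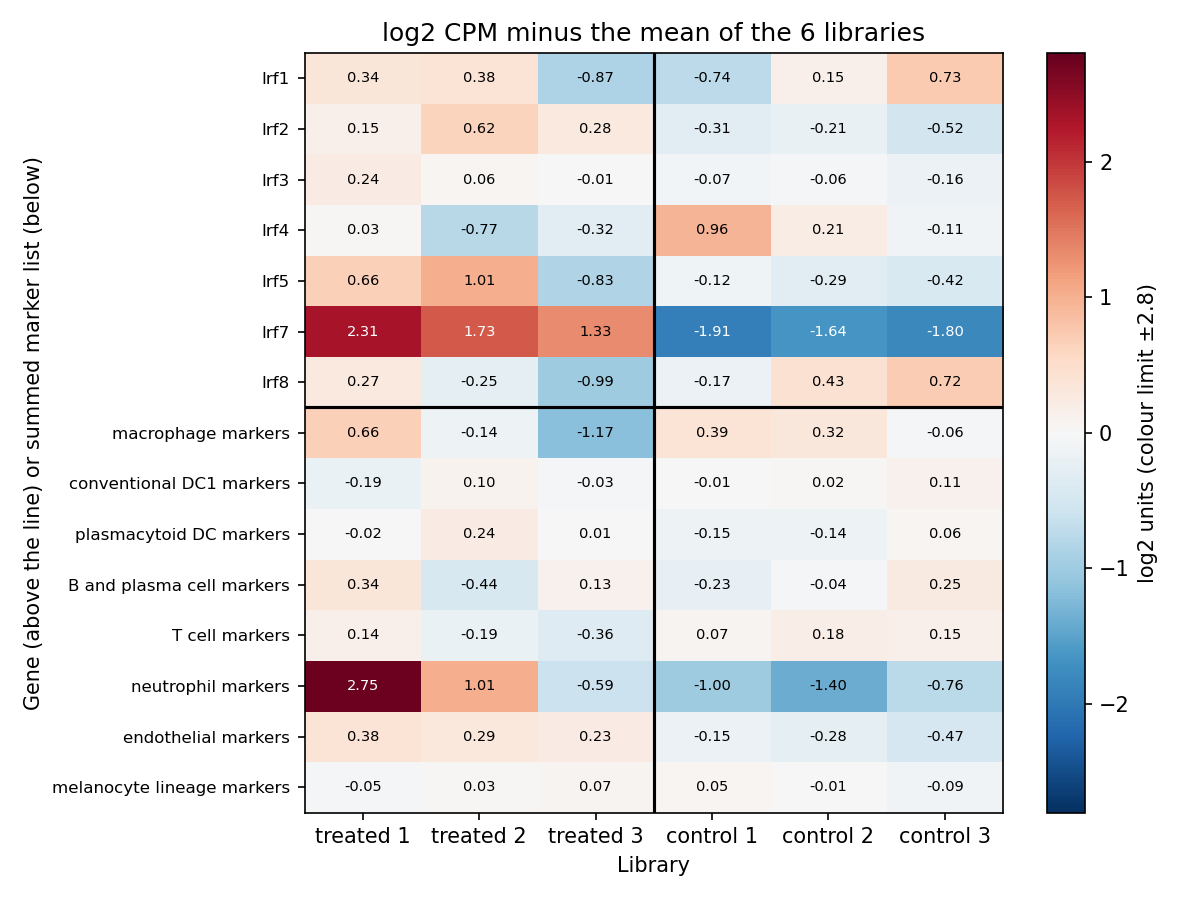
Log2 CPM minus the mean of the 6 libraries for the 7 genes (above the line) and for the summed CPM of 8 marker lists (below), with treated libraries at the left and the value printed in each cell. Red is above and blue below the mean of the 6 libraries. Irf7 is red in all treated and blue in all control libraries. Irf5, Irf8, macrophage and neutrophil markers are each lower in treated 3 than in treated 1, as is Irf7 itself.

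Genes that act around the IRFs were taken as lists. Among the 10 targets of IRF3 and IRF7, 9 could be tested, with a median log2 fold change of 3.00. Of the 9 tested, 0 fell, against 0.249% of all genes, and 6 rose, against 1.36%. They included Ifit1, which binds foreign RNA (155 ± 57.4 CPM in the treated libraries against 9.40 ± 1.46 CPM in the controls, SD, n = 3, edgeR adjusted p = 0.000348), its relative Ifit3 (339 ± 100.3 against 27.5 ± 4.14 CPM, edgeR adjusted p = 0.000305), Isg15 (196 ± 44.3 against 19.01 ± 3.47 CPM, edgeR adjusted p = 0.000305) and Rsad2, an antiviral enzyme (398 ± 193 against 49.6 ± 9.63 CPM, edgeR adjusted p = 0.00387). Reads of the Ifit paralogs may be split among them, which makes these values uncertain. The 3 tested targets that missed the threshold, named after their values were seen, were Ifnb1 (log2 fold change 2.57, edgeR adjusted p = 0.363, at 0.629 ± 0.740 CPM in the treated libraries against 0.103 ± 0.118 CPM in the controls), Cxcl10 (2.02, edgeR adjusted p = 0.0732) and Ccl5 (2.64, edgeR adjusted p = 0.105). Cxcl10 (edgeR adjusted p = 0.026) and Ccl5 (0.00277) passed without treated 3. Ifit2, also named after its value was seen, changed by 1.83 log2 units (edgeR adjusted p = 0.0271) and was no longer called when treated 1 or any single control was left out, with edgeR adjusted p up to 0.153.

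Of the 11 targets of IRF1, 10 were tested, and 0 passed with edgeR, against 1.61% of all genes. Their median log2 fold change was 0.44. At an unadjusted p under 0.05 there were 3 of 10, all higher, against 16.0% of all genes. DESeq2 called 1 of them, Il15, the cytokine of natural killer cells, limma-voom called 0, and edgeR without treated 3 called Nos2, the inducible nitric oxide synthase, with an adjusted p of 0.026. Both were named after their values were seen. Gbp2, an interferon-induced GTPase and the most abundant of the list, had a log2 fold change of 0.40 ± 0.45 SE (edgeR adjusted p = 0.732). Whether the targets of IRF3 and IRF7 differed from those of IRF1 in their change was not tested.

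Upstream of the IRFs, 3 of 22 sensors, adaptors and kinases rose, against 1.36% of all genes, and 0 fell, against 0.249%. Their median log2 fold change was 0.22. Those that rose were the RNA sensors Ddx58 (RIG-I, log2 fold change 3.01 ± 0.10 SE, edgeR adjusted p = 3.85e-05), Ifih1 (MDA5, 2.21 ± 0.20, edgeR adjusted p = 0.00161) and Tlr3 (1.56 ± 0.14, edgeR adjusted p = 0.00127), which are all known to be induced by interferon. For the kinase Tbk1 the log2 fold change was 0.16 (95% interval -0.02 to 0.34, edgeR adjusted p = 0.374), and for the adaptor Sting1 0.30 (95% interval 0.05 to 0.54, edgeR adjusted p = 0.226). Myd88, the adaptor that connects Toll-like receptors to IRF5 and IRF7, had 0.73 ± 0.22 SE (edgeR adjusted p = 0.165) and passed without treated 3 (0.0161). These last 3 genes were named after their values were seen.

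Of the 10 genes from interferon receptors to the complex that drives Irf7, 3 rose, against 1.36% of all genes, and 0 fell, against 0.249%. Among the 3 were Stat2 (83.2 ± 14.4 CPM in the treated libraries against 22.9 ± 2.25 CPM in the controls, SD, n = 3, edgeR adjusted p = 0.000559) and Irf9 (76.4 ± 3.21 against 25.7 ± 4.28 CPM, edgeR adjusted p = 0.000668). Irf9, the family's partner of STAT2, had 76.6, 79.4 and 73.0 CPM in the treated libraries against 20.99, 26.7 and 29.4 CPM in the controls. Unlike Irf7, Irf9 was nearly level across the treated libraries, with a coefficient of variation of 4.2%.

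Of the 10 partners of IRF4 and IRF8, 0 passed with edgeR over all genes, against 1.61% of all genes, at a median log2 fold change of -0.02. At an unadjusted p under 0.05 there was 1 of 10, against 16.0% of all genes. DESeq2 called 1, Stat3, named after its value was seen, and limma-voom called 0. Ets1, the most abundant of them, had a log2 fold change of 0.06 ± 0.08 SE (edgeR adjusted p = 0.781). Of 12 IRF2-binding proteins and genes known to restrain IRFs, 1 rose, against 1.36% of all genes, and 0 fell, against 0.249%. The gene that rose was Trim21, a ubiquitin ligase that targets IRFs (39.0 ± 6.40 CPM in the treated libraries against 10.9 ± 2.26 CPM in the controls, SD, n = 3, edgeR adjusted p = 0.00216). Eif4ebp2, a translation repressor that limits IRF7 protein in mouse cells, was the most abundant of that list and had a log2 fold change of -0.01 ± 0.06 SE (edgeR adjusted p = 0.968).

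**Figure D5:**
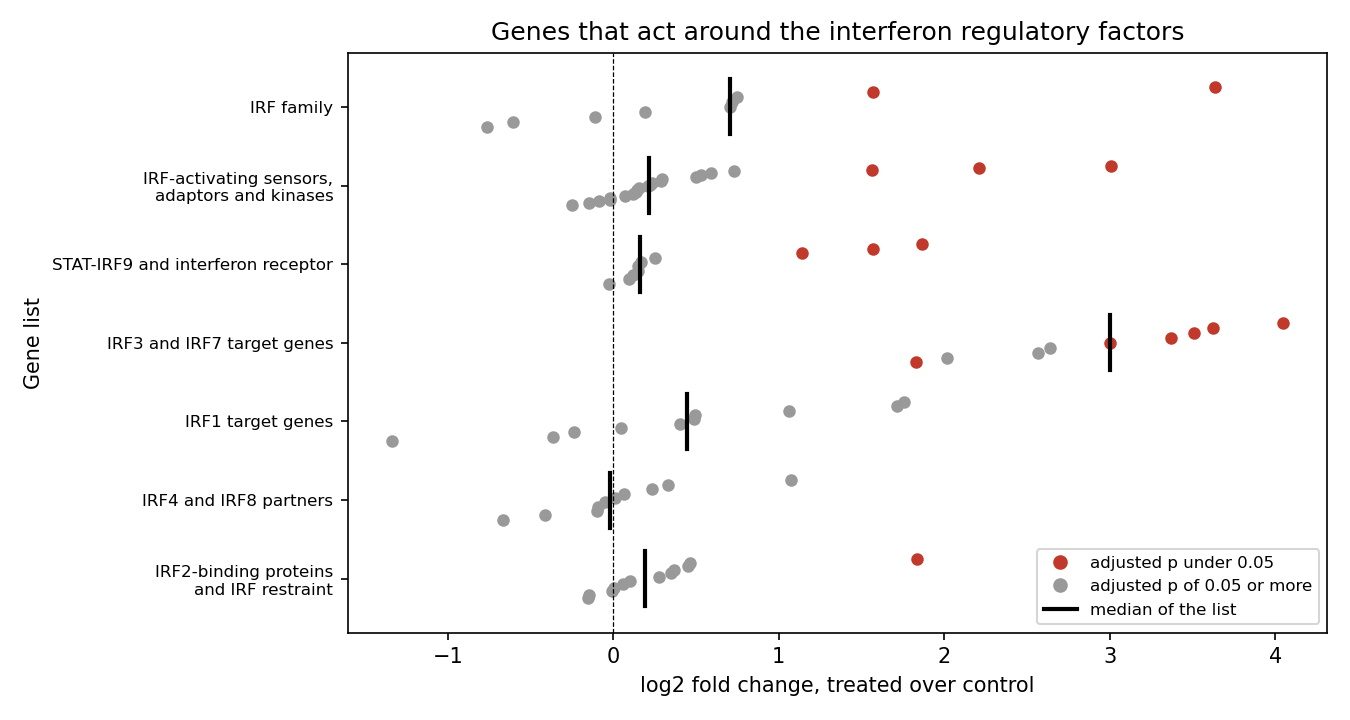
Log2 fold change of treated over control for each tested gene of 7 lists of IRF genes, their regulators and their targets. Each point is a gene, red where the adjusted p is under 0.05, and the black bar is the list's median. The median is 3.00 for targets of IRF3 and IRF7 and between -0.02 and 0.71 for the other 6 lists.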

How the data were processed

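The members and gene lists were chosen with earlier results of these data known. Per the labels' protocols, poly(A) RNA was made into dUTP-marked libraries and sequenced as read pairs. Tools listed in the submitters' processing notes are fastp, StringTie and edgeR; for aligner, genome build, annotation and strand setting the entry is: not given in the sources used here. The authors deposited raw counts and FPKM values per gene and library, per the file headers. GENCODE M21 (GRCm38) holds 99.7% of the deposited identifiers and gives 6 of the 7 genes the deposited start and end. FPKM was used to compare levels between genes, after a check that FPKM per count was constant per gene and library within 1% for at least 99.8% of 12046 genes. The FPKM header of control 2 carries an extra suffix and was matched by that sample's title.

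In R 4.3.3, edgeR 4.0.16 (filterByExpr with minimum count 10 and minimum total count 15, TMM factors 0.974 to 1.01, glmQLFit and glmQLFTest on the group term, all 6 libraries, two-sided) tested 18049 genes and left out 10319. The SE is the log2 fold change divided by the square root of F, and the 95% interval uses the fit's degrees of freedom. Alternatives used limma 3.58.1, DESeq2 1.42.0, other scalings and filters, a replicate block and leave-outs. The fit was tested on simulated data with 200 changed genes. Ratios were taken on counts and tested by exact permutation (scipy 1.17.1). The text names all 7 genes, for each list its most abundant gene and up to 3 called genes ranked by p, and nearest profiles, and marks others where they appear, and some genes that this rule names are not reported here; the values of overlapping and marker genes are given as context. Totals of 57017043 to 66634551 counts leave precision to the spread between libraries except for genes with few counts, such as Irf4. Promoter sequences are from RefSeq (GRCm38.p6), where 7 of 7 genes matched by symbol. Protein sequences were not used here.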

Additional observations from a re-analysis of the deposited data

How the results depend on the processing

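Irf7 was called higher in all 14 alternatives to its test, with log2 fold changes from 3.33 to 3.84. The number of the 7 genes called higher was 1 in the reported analysis and 2 with DESeq2, with limma-voom with sample quality weights (Irf2 joined in both) and without treated 3 (Irf5 joined), or 1 to 2 over the leave-outs, and none was called lower in any setting. The change of Irf1 ran from -0.41 to 0.29 over the leave-outs, with a positive sign without treated 3 (0.20) and without control 3 (0.29). The Irf8 to Irf4 difference in log2 ratio ran from -0.48 to 0.51 over the leave-outs. Among regulators upstream of the IRFs, DESeq2 called 5 higher in place of 3. Targets of IRF1 had 1 call with DESeq2, 1 with quality weights and 0 to 1 over the leave-outs, and partners of IRF4 and IRF8 had 1 with DESeq2 and 1 with quality weights, where edgeR gave 0. The IRF2-binding and restraining genes had 3 calls at a minimum count of 50, 4 with DESeq2, 4 with quality weights and 1 to 2 over the leave-outs, in place of 1. The causes were not tested. Over all genes, 246 rose and 45 fell. These counts were 754 and 367 with DESeq2, 601 and 191 with quality weights, 164 and 10 with no filter, and 94 to 308 and 3 to 39 over the leave-outs.

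With the replicate number as a block, 123 genes rose and 14 fell, 1 of the 7 genes (Irf7, log2 fold change 3.58, edgeR adjusted p = 0.00606) rose, and Ifit2 was not called. Libraries with the same number shared no deviation from their group means (correlations over genes 0.086, -0.164 and -0.107), so the numbers were not taken as pairs. Depth limits Irf4, at 37 to 67 counts in treated and 53 to 128 counts in control libraries.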

Other observations

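Ly6d, an epithelial and lymphoid surface protein, chosen after its values were seen, had 260, 27 and 0 counts in treated 1, 2 and 3, against 10, 0 and 10 counts in control 1, 2 and 3. Treated 1 was the highest of the 6 libraries and the groups overlapped (log2 fold change 3.73 ± 1.70 SE, edgeR adjusted p = 0.335).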
